A study of Mus musculus with 26 samples.

Results

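Total liver RNA of C57BL/6J mice fed a high-fat diet was compared with that of C57BL/6J mice fed a normal diet, called wild type here. The 8 libraries were taken by their titles from the 26 of the study, 4 for each diet. Each group had 2 replicate numbers, and the 2 libraries sharing a number were taken as runs of 1 RNA sample and summed to 1 unit, which leaves 2 units per group. The other libraries held total RNA of ob/ob mice, which lack leptin, and RNA precipitated from liver extracts with control IgG or with an antibody against hnRNPK, an RNA-binding protein. Both diet groups share the strain, and the labels do not say that libraries sharing a number come from the same RNA. The sources used here do not give the composition and duration of the diet, age, sex or the number of mice behind a replicate, so the spread between units may be technical. Values are given by transcript cluster, which is the gene-level grouping of the deposited tables. None of the 59121 transcript identifiers was found in the 4 reference tables searched for names, so each cluster is called by the transcript identifier of its isoform with the most counts, and its function is not stated. For the same reason the labelled tissue could not be checked against liver markers.

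A high-fat diet makes C57BL/6J mice obese, and fat accumulates in their hepatocytes, the main cell type of the liver. Liver RNA is dominated by messages for secreted plasma proteins and metabolic enzymes, and feeding a fat-rich diet is known to change genes of lipid uptake, synthesis and oxidation. A gene can also change which isoform it uses, through another promoter, splice site or polyadenylation site, without a change in its total RNA. In whole liver, a shift in the share of a cell type and a shift in RNA per cell cannot be told apart.

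The 8 libraries held 34577549 to 41731910 counts each. Between 16839 and 17409 clusters had at least 1 count. The 10 most counted clusters took 17.97% and 18.17% of the counts in wild-type replicate 1 and 22.45% and 21.93% in wild-type replicate 2. In the high-fat libraries they took 16.24% to 18.73%, a range that holds both libraries of wild-type replicate 1.

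The number of clusters called different in level between the diets depended on the test. With edgeR's quasi-likelihood test, 0 of 15487 clusters (0%) had an adjusted p under 0.05, and the smallest adjusted p was 0.135. Unadjusted p-values under 0.05 were found for 1527 of the 15487 clusters, 791 higher and 736 lower in high-fat diet. With no difference anywhere, a share of about 0.05 of the clusters would fall there. DESeq2 called 320 of 14586 clusters (2.19%), 145 higher and 175 lower, with a median absolute log2 fold change of 1.04. The fit used the 6 total RNA units of all 3 mouse groups to estimate the spread. When 1 unit was left out, the remaining unit of its group was assumed to vary like the other groups. Calls from such fits do not measure that group's own spread. Leaving out wild-type replicate 1 raised edgeR's calls to 1175, and leaving out the other wild-type replicate gave 3.

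Most fold changes were small. The median log2 fold change was 0.01, with quartiles of -0.14 and 0.20, and the median standard error was 0.17. By library size only, without composition scaling, the median was 0.13. For 10688 clusters (69.0%) the 95% interval of the fold change lay within 2-fold in either direction. Only 530 clusters had a fitted log2 fold change of at least 1 and 305 one of at most -1.

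The size of a difference depended on which wild-type replicate was used. Between the 2 wild-type units, 1901 clusters (12.3%) were at least 2-fold apart on the log2 CPM scale, where CPM is the count scaled to library size and composition. Between the 2 high-fat units it was 659 (4.26%). High-fat replicates 1 and 2 were at least 2-fold from wild-type replicate 1 in 719 and 811 clusters. From wild-type replicate 2 they were that far apart in 1882 and 1948 clusters. Wild-type replicate 1 was thus nearer to both high-fat units than to the other wild-type unit. The 2 runs of a unit differed by at least 2-fold in 355 to 541 clusters.

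**Figure D1:**
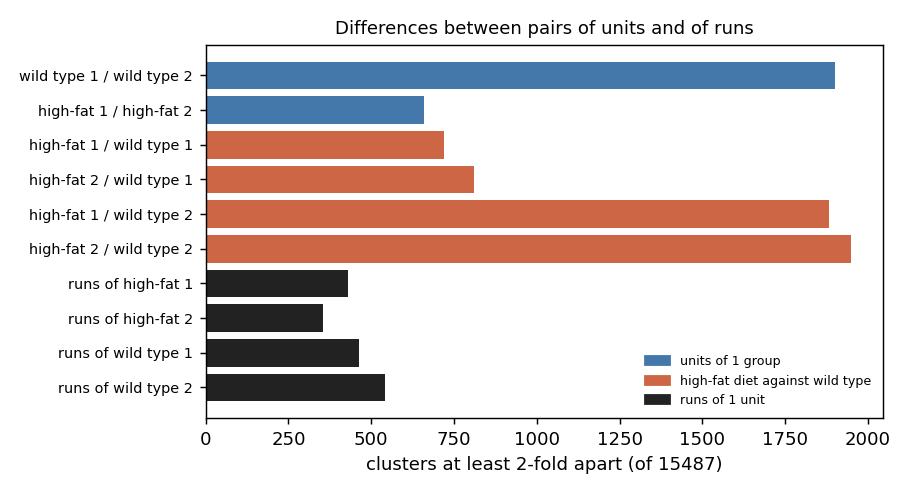
Number of clusters at least 2-fold apart on the log2 CPM scale, of 15487, for each pair of units and for the 2 runs of each unit. The wild-type pair (1901 clusters) is as far apart as either high-fat unit and wild-type replicate 2 (1882 and 1948), while both high-fat units lie nearer to wild-type replicate 1 (719 and 811).

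Ranges that do not overlap were counted next, with no test, since an exact permutation test of 2 units against 2 cannot give a two-sided p under 0.333. Both high-fat units lay above both wild-type units in 3438 clusters (22.2%) and below them in 2925 (18.9%). A share of about 0.333 of clusters would separate one way or the other with no difference between the diets. With at least a 2-fold difference of the group means, 424 clusters (2.74%) were higher and 256 (1.65%) lower. By library size only the split was 539 and 198. The count of 680 in both directions became 2115 without wild-type replicate 1, of which 1599 were higher, and 1213 without high-fat replicate 1. When all 4 libraries of one diet had to lie on one side of all 4 of the other, 267 clusters (1.72%) were at least 2-fold higher and 190 (1.23%) at least 2-fold lower. Among these, 57 and 50 differed by at least 4-fold. The nearest libraries of the 2 diets were themselves at least 2-fold apart in 46 higher and 37 lower clusters. All 320 clusters called by DESeq2 had units that did not overlap, and 164 were among those with separated libraries and a 2-fold difference.

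**Figure D2:**
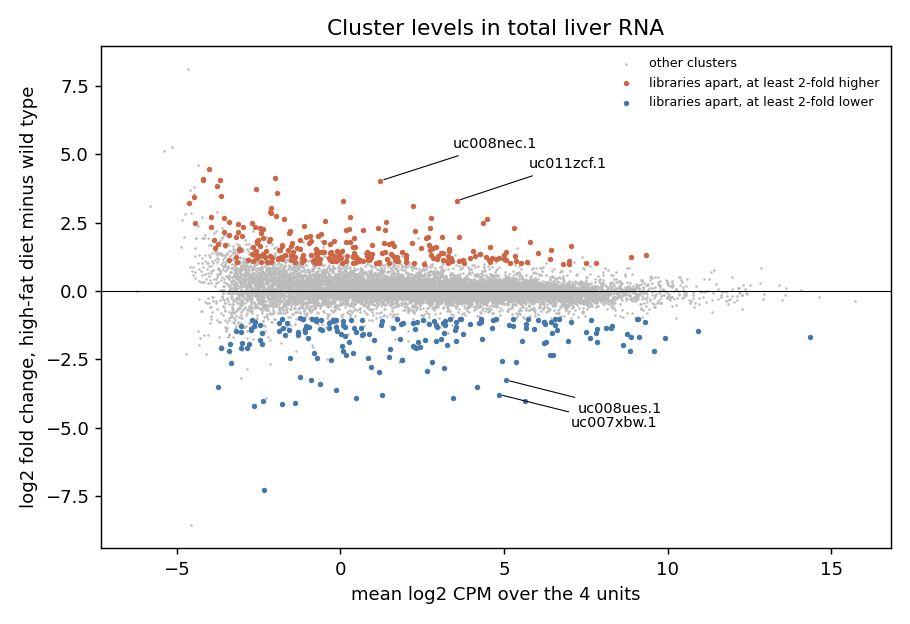
Log2 fold change of high-fat diet minus wild type from the edgeR fit against mean log2 CPM over the 4 units, 1 point per cluster. Coloured points are the 267 higher and 190 lower clusters whose 8 libraries separate by diet with at least a 2-fold difference, and the 4 labelled ones have the widest gaps among clusters whose mean log2 CPM reached 1.

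Clusters with the widest gap between the nearest libraries of the 2 diets were taken from the 1313 higher and 1332 lower clusters whose mean log2 CPM reached 1 and whose 8 libraries did not overlap between the diets. Cluster uc008nec.1 (cluster number 16602, 1383 nt, 1 isoform) had 1.098 and 1.187 CPM in the libraries of wild-type replicate 1, and 0.221 and 0.184 in those of replicate 2. The high-fat libraries had 9.75 and 9.03 CPM in replicate 1, and 13.0 and 12.4 in replicate 2. Every high-fat library was above every wild-type library, and the wild-type replicates were much further apart than the runs of either. The means were 0.672 ± 0.664 CPM for wild type and 11.1 ± 2.38 for high-fat diet (SD, n = 2). The fitted log2 fold change was 4.04 with a standard error of 0.65, at an edgeR adjusted p of 0.28 and a DESeq2 adjusted p of 0.00099. It was 5.76 without wild-type replicate 1, and 3.27 when the other wild-type replicate was left out. Clusters named here were picked by their gap, so their p-values are no separate support for a difference. The 4 ob/ob libraries had 10.32 to 12.05 CPM, within the range of the high-fat libraries.

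Cluster uc011zcf.1 (number 7273, 6665 nt, 9 isoforms) had 5.36 and 5.41 CPM in wild-type replicate 1 and 2.41 and 2.49 in replicate 2, against 31.0 and 31.4 in high-fat replicate 1 and 45.8 and 46.9 in replicate 2. The diets did not overlap, and the runs of a unit lay close together. The fitted log2 fold change was 3.30 with a standard error of 0.43, at an edgeR adjusted p of 0.195 and a DESeq2 adjusted p of 1.2e-12. It was 3.98 without wild-type replicate 1 and 2.84 when the other wild-type replicate was left out. Unlike uc008nec.1, its ob/ob libraries, at 4.41 to 7.68 CPM, lay far below the high-fat libraries.

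The widest gap among lower clusters was that of uc008ues.1 (number 19492, 2395 nt, 1 isoform). Its wild-type libraries had 97.3 and 101 CPM in replicate 1 and 106 and 111 in replicate 2. The high-fat libraries had 11.5 and 13.3 in replicate 1 and 9.45 and 9.29 in replicate 2. Each diet kept to a narrow range, and the ranges lay far apart. The means were 104 ± 7.26 and 10.9 ± 2.16 CPM (SD, n = 2). The fitted log2 fold change was -3.26, with a 95% interval of -3.90 to -2.61. The edgeR adjusted p was 0.14 and the DESeq2 adjusted p was 1.5e-28. Leaving out any 1 unit gave log2 fold changes of -3.47 to -3.07. With run 1 libraries alone, its edgeR adjusted p was 0.035, and it was 1 of only 2 clusters called there. With run 2 libraries alone its edgeR adjusted p was 0.0975. The ob/ob libraries had 0.508 to 1.46 CPM, below the high-fat libraries.

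Cluster uc007xbw.1 (number 9767, 4649 nt, 1 isoform) had 45.0 and 46.9 CPM in wild-type replicate 1 but 193 and 199 in replicate 2. In high-fat diet it had 8.02 and 8.45, and 9.11 and 9.67. The diets did not overlap, and wild-type replicate 2 was several times above wild-type replicate 1. The fitted log2 fold change was -3.79 with a standard error of 0.79, at an edgeR adjusted p of 0.322 and a DESeq2 adjusted p of 0.0026. It was -4.48 when wild-type replicate 1 was left out and -2.39 when the other one was. The ob/ob libraries had 15.4 to 38.7 CPM, between the 2 diets.

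**Figure D3:**
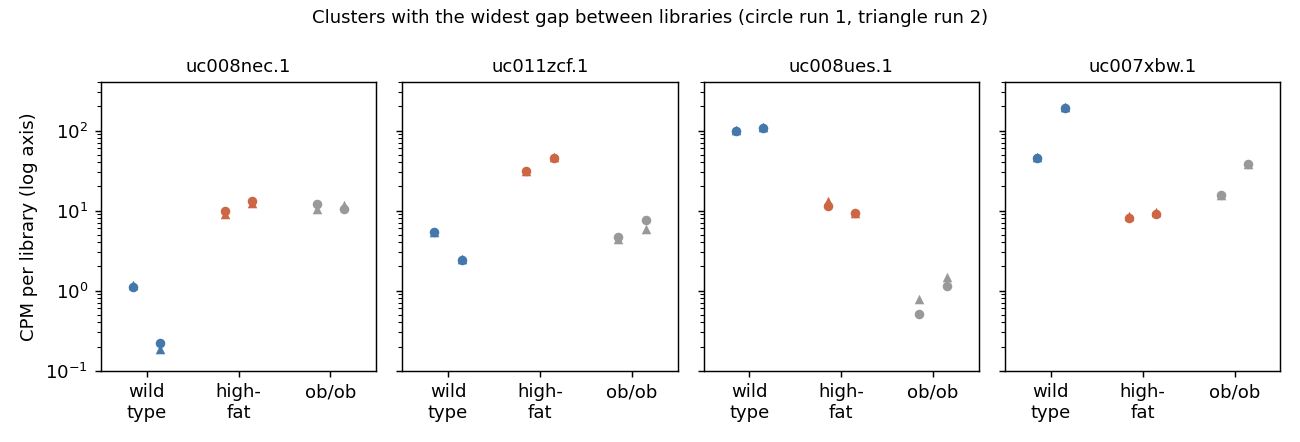
CPM of each library on a log axis for the 4 clusters with the widest gaps, by mouse group, with the 2 replicates side by side and a symbol for each run. All 4 high-fat libraries lie above (uc008nec.1, uc011zcf.1) or below (uc008ues.1, uc007xbw.1) all 4 wild-type libraries, and wild-type replicates are spread most in uc008nec.1 and uc007xbw.1.

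Large differences were unequally divided over abundance, given as CPM without correction for length. Among 3078 clusters under 1 CPM, the libraries separated with at least a 2-fold difference in 126 higher and 56 lower clusters (4.09% and 1.82%). The median log2 fold change of this class was 0.18. Against wild-type replicate 1 the medians of high-fat replicates 1 and 2 were -0.06 and 0.10, and against wild-type replicate 2 they were 0.32 and 0.42. The shift to higher values in this class was thus present only against wild-type replicate 2 for both high-fat units. Among 1274 clusters of 100 to 1000 CPM the separated clusters were mostly lower, 28 against 8 higher, and the median log2 fold change was -0.08. Here all 4 pairs of a high-fat and a wild-type unit had a negative median, but the pairs share units. High-fat replicates 1 and 2 had -0.0475 and -0.045 against wild-type replicate 1. Against wild-type replicate 2 they had -0.108 and -0.103. The 2 wild-type units differed by a median absolute log2 value of 0.21 in this class. Class medians were not computed by library size only, where the median over all clusters was 0.13.

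Among the 120 clusters of at least 1000 CPM, 0 were at least 2-fold higher with separated libraries, and 4 were lower. The most abundant of these, uc008hpr.2 (4837 nt, 1 isoform), was singled out after its values were seen. It had 22202 and 57601 CPM in the wild-type units and 10755 and 13985 in the high-fat units. Both high-fat units were below both wild-type units, but by ratio wild-type replicate 1 lay nearer to them than to wild-type replicate 2. The fitted log2 fold change was -1.69 with a standard error of 0.53, at an edgeR adjusted p of 0.443 and a DESeq2 adjusted p of 0.124. It was -2.22 without wild-type replicate 1 and -0.85 when the other one was left out. The ob/ob units had 20001 and 30932 CPM. The largest difference in this class was that of uc008tai.2 (992 nt, 5 isoforms), also chosen after its values were seen, with unit values of 1118 and 2333 CPM for wild type, 458 and 294 for high-fat diet and 1.72 and 2.53 for ob/ob. Its fitted log2 fold change was -2.20 with a standard error of 0.42, at an edgeR adjusted p of 0.322 and a DESeq2 adjusted p of 2.8e-06. It was -2.63 without wild-type replicate 1 and -1.57 when the other one was left out. The remaining pair had log2 fold changes of -1.71 and -1.48. In all 4 clusters wild-type replicate 2 was above wild-type replicate 1.

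Fold changes also leaned with transcript length, by small amounts. The median log2 fold change went from -0.10 in 1294 clusters under 1000 nt to 0.10 in 529 clusters of at least 8000 nt, against 0.01 over all clusters. Among clusters of at least 10 CPM, a restriction chosen after seeing the data, the medians of these classes were -0.19 (602 clusters) and 0.07 (344 clusters). In the short class the 4 pairs of a high-fat and a wild-type unit had medians of -0.29 to -0.06, and the 2 wild-type units differed by -0.19 between themselves. In the long class the 4 pairs had 0.01 to 0.14, and the 2 high-fat units differed by 0.11. The sign was the same over the 4 pairs in each class, while replicates of 1 diet differed by amounts within the range of the pairs.

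**Figure D4:**
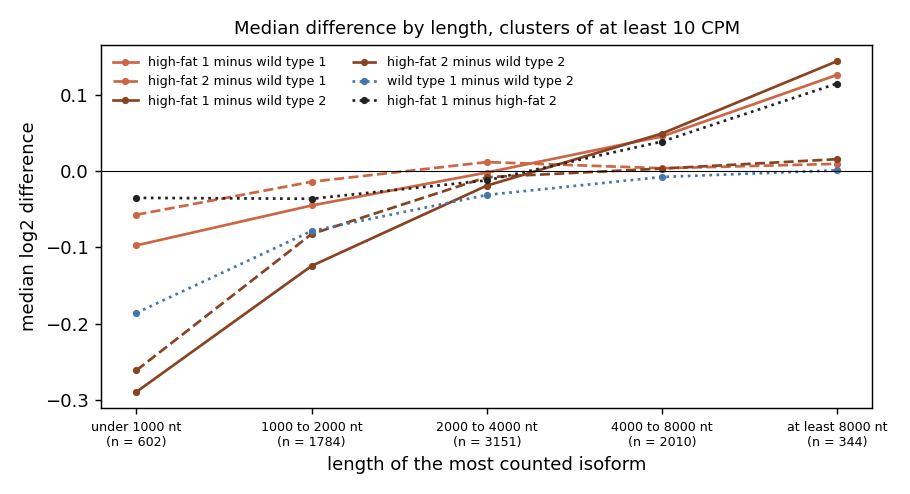
Median log2 difference by length of the most counted isoform among clusters of at least 10 CPM, for the 4 pairs of a high-fat and a wild-type unit (solid and dashed lines) and for the pairs within a diet (dotted lines). The wild-type pair falls to -0.19 in the shortest class and the high-fat pair reaches 0.11 in the longest, as far as several of the pairs between diets.

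Fold changes were smaller in clusters with more annotated isoforms. The median absolute log2 fold change was 0.20 in 5628 clusters of 1 isoform and 0.14 in 1006 clusters of 6 or more. Separated libraries with at least a 2-fold difference were found in 2.24% (higher) and 1.51% (lower) of the first class, and in 1.09% and 0.99% of the last. The wild-type units also differed less in the last class, by a median of 0.20 against 0.29.

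Isoform use was described as the share of an isoform in the counts of its cluster, for 28264 isoforms of 8323 clusters with at least 50 counts in every unit. The units did not overlap and differed by at least 10 percentage points for 463 isoforms with a higher share in high-fat diet (1.64%) and 492 with a lower share (1.74%). These lay in 593 clusters (7.12%). In 20 of the 593 the level of the whole cluster also separated with a 2-fold difference, beside 680 of all 15487 clusters tested in level. When all 8 libraries had to separate by diet, 151 clusters (1.81%) met this. Separated shares were most frequent in clusters with few counts. The units separated by 10 points in 19.3% of clusters with 50 to 200 counts, in 9.81% with 200 to 1000, in 2.58% with 1000 to 5000 and in 1.43% with at least 5000 counts in the lowest unit.

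The division of reads among isoforms varied as much between runs as between diets. The share of counts that would have to be reassigned to match 2 units was at least 10 points in 15.7% to 19.8% of clusters between a high-fat and a wild-type unit. This was 18.01% between the wild-type units and 17.37% between the high-fat units. Between the 2 runs of a unit, each with fewer counts than a unit, it was 19.5% to 21.2%. The most used isoform, taken by counts without correction for length, was the same in all 4 units in 7552 of the 8323 clusters. It differed by diet in 62 clusters by units and in 5 by libraries, while it differed between the wild-type units in 452 and between the high-fat units in 402. For each of the 8323 clusters the mean transcript length was weighted by share, and its median log2 difference between the diets was 0. With units that did not overlap, it was longer in high-fat diet in 1309 of them and shorter in 1321. It was so by at least 10 percent in 19 and 6. Where units are not tied, a share of about 0.333 of clusters would separate one way or the other with no difference.

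With edgeR's test of differential isoform use, 26 of 7772 clusters (0.335%) had an adjusted p under 0.05. An unadjusted p under 0.05 was found for 492 of the 7772, where a share of about 0.05 would fall with no difference. Of the 26, 15 had at least 1000 counts in every unit, and 11 held an isoform whose share separated by 10 points in the units. The median of their largest share difference was 6.83 points. The 26 calls became 5 without high-fat replicate 1, 90 without wild-type replicate 1, 8 when the other wild-type replicate was left out, and 2 with limma.

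The smallest adjusted p was that of the cluster of uc007rrs.2, a 5842 nt isoform beside the main isoform uc007rrt.2 of 6914 nt (cluster number 7416). It was singled out after its values were seen, among clusters with at least 5000 counts in every unit. Its share was 7.21% and 8.06% in the libraries of wild-type replicate 1 and 8.95% and 11.4% in those of replicate 2. In high-fat diet it was 25.5% and 22.6% in replicate 1 and 29.7% and 26.5% in replicate 2. Every high-fat library was above every wild-type library, with means of 8.89% ± 1.80 and 26.2% ± 2.97 (SD, n = 2). The main isoform held 91.1% and 88.8% of the cluster in the wild-type units and 72.8% and 68.5% in the high-fat units. The 607 nt isoform uc007rru.1 of this cluster held 1.1% and 0.99% in the wild-type units and 3.14% and 3.21% in the high-fat units. The edgeR adjusted p for the cluster was 0.0014. It was 0.00074 with isoforms of at least 50 counts, 0.0028 with a replicate block and 0.020 on the 4 units of the diets alone. With limma the adjusted p was 0.0024. Leaving out any 1 unit gave share differences of 15.2 to 19.4 points. The share difference of uc007rrs.2 was 17.3 points by counts and fell to 12.5 points with the deposited TPM values. The level of the whole cluster was 82.6 and 77.3 CPM in the wild-type units against 102.6 and 102.3 in the high-fat units, with a fitted log2 fold change of 0.36 and a standard error of 0.09 (edgeR adjusted p = 0.379). In ob/ob the share of uc007rrs.2 was 33.6% and 36.7%.

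Other well-counted clusters had separated shares that the test did not call. The 1334 nt isoform uc008eez.1, 1 of 2 in its cluster, had a share of 43.4% and 47.2% in the wild-type units. In the high-fat units it had 70.8% and 63.9%. By counts, without correction for length, its partner of 1530 nt had the larger share in wild type and the smaller one in high-fat diet. The cluster of uc008eez.1 had an edgeR adjusted p of 0.114. Isoform uc009fgc.2 (2147 nt) was lower, with 41.1% and 34.3% in wild type against 26.6% and 24.3% in high-fat diet. Isoform uc007wtq.1 (4766 nt) was likewise lower, with 41.6% and 44.4% against 30.5% and 35.3%. The clusters of these 2 isoforms both had an edgeR adjusted p of 1. These 3 isoforms were chosen after their values were seen, by the gap between the nearest libraries.

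The 4 isoforms with the widest gaps over all clusters with at least 50 counts lay in clusters whose lowest unit had 60 to 219 counts, and 3 of them were at 0 in 1 diet. Isoform uc007kbx.1 (6410 nt, 1 of 4) had 0 counts in the 4 wild-type libraries, which with 236 cluster counts allows a share of up to 1.27% (3 counts of the total), and 37.4% to 67.8% in the high-fat libraries (edgeR adjusted p = 0.238 for its cluster). Isoform uc008hit.1 (7094 nt) was at 0 in wild type, which with 963 cluster counts allows up to 0.311%, and at 38.4% and 39.8% in high-fat replicate 1. In high-fat replicate 2 it had 26.5% in one run and 77.4% in the other. Nearly all other counts of the cluster went to uc012blf.1, which is 7133 nt long. The cluster passed the test with an edgeR adjusted p of 0.044 but not with limma (adjusted p = 0.918), and leaving out 1 unit gave edgeR adjusted p-values of 0.038 to 0.172.

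Isoform uc008aqs.1 (2912 nt) was at 0 in all 4 high-fat libraries, which with 258 cluster counts allows up to 1.16%, and at 25.6% to 57.5% in the wild-type libraries (edgeR adjusted p = 0.034 for its cluster, limma adjusted p = 0.906). With 1 unit left out the edgeR adjusted p was 0.064 to 0.171, above the threshold each time. Its only partner, uc008aqt.1, is 2917 nt long. Isoform uc008iei.1 (4294 nt) had 80.2% to 100% in wild type, against 37.4% and 58.2% in high-fat replicate 1, and in high-fat replicate 2 it had 40.4% in run 1 and 0.624% in run 2 (edgeR adjusted p = 0.84 for its cluster). These limits cover counting error only. In uc008hit.1 the runs of high-fat replicate 2 were further apart than the diet means, which differed by 44.4 points. RSEM divides reads among isoforms of shared sequence, and its part in these shares was not tested.

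**Figure D5:**
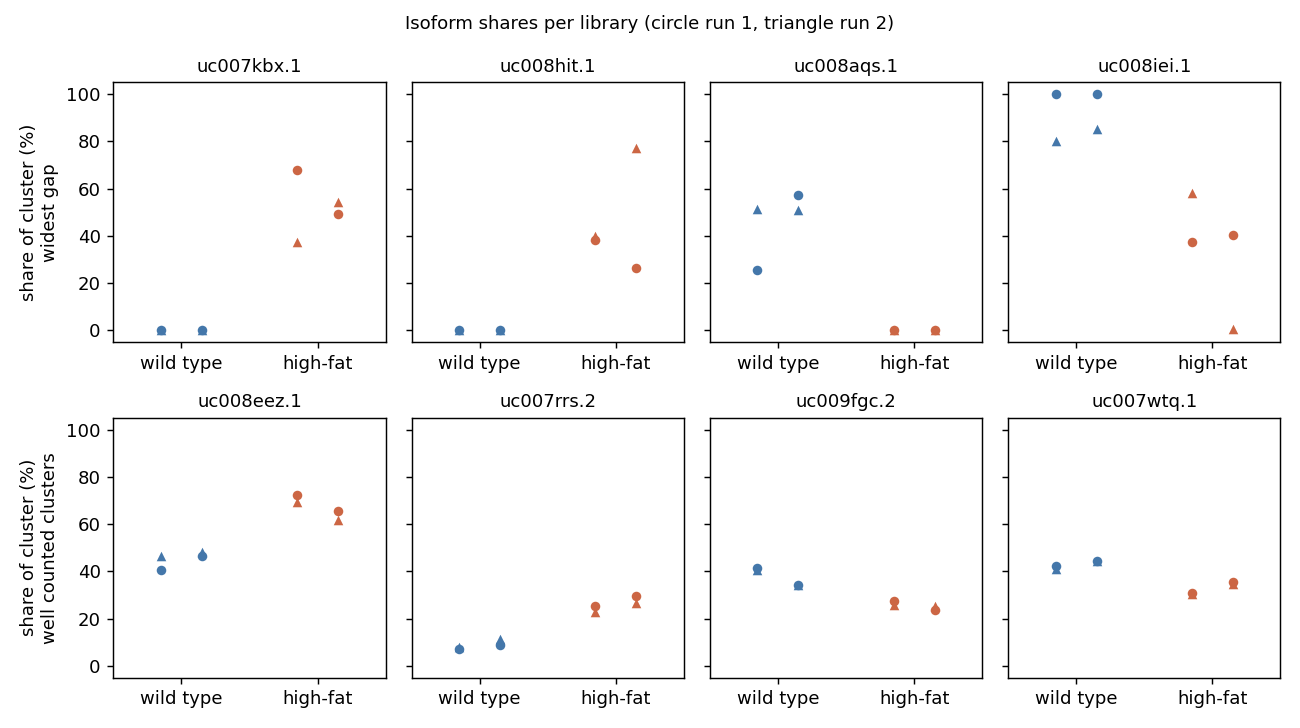
Share of an isoform in its cluster, in percent, per library, for the 4 isoforms with the widest gaps (upper row) and for 4 isoforms of clusters with at least 5000 counts in every unit (lower row), with a symbol for each run. In the upper row some runs of 1 unit lie far apart, as for uc008hit.1 at 26.5% and 77.4%, while in the lower row runs lie close together and uc007rrs.2 separates at 7.21% to 11.4% against 22.6% to 29.7%.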

How the data were processed

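The authors deposited 1 table per library with RSEM 1.2.8 expected counts and TPM per transcript. TopHat2 2.0.10, Bowtie2 2.1.0, SAMtools, bcl2fastq and build mm10 are also named in the submitters' processing notes, with no role or order. RNA libraries were made with a TruSeq kit, per the labels' protocols, and the sources used here do not give strandedness. Expected counts were summed per cluster and over the 2 runs of a unit and rounded. Levels were tested with edgeR 4.0.16 in R 4.3.3 (quasi-likelihood, TMM scaling, filterByExpr, Benjamini-Hochberg adjustment), on the 6 total RNA units with a mean per group. Standard errors were derived from the fold change and the root of its F statistic. Isoform use was tested with edgeR's diffSpliceDGE on isoforms with at least 10 counts in at least 2 units. DESeq2 1.42.0 and limma 3.58.1 gave alternatives, and the deposited TPM values served only as an alternative for shares. Gaps used log2 CPM with a prior count of 1. Named clusters are the first 2 higher and 2 lower by gap, and likewise for isoforms. The planned gene and marker lists needed gene symbols and were not analysed here. Samples, lists and rules were chosen with earlier results of these data known. Deviations of replicates 1 and 2 from their group means had a correlation of -8e-04 between high-fat diet and wild type. It was -0.2545 between ob/ob and wild type, and -0.0234 between high-fat diet and ob/ob. Whether equal replicate numbers shared a litter or day cannot be read from these values. The steps were run on simulated counts with the same spread in every group. The wild-type units here differed more than the high-fat units, so such runs do not measure error rates in these data.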

Additional observations from a re-analysis of the deposited data

How the results depend on the processing

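Clusters called in level numbered 0 with edgeR, and also 0 by library size only, with DESeq2's size factors, without a filter, with run 2 libraries only, on the 4 units of the 2 diets alone and with a replicate block. They numbered 2 with run 1 libraries only, 320 with DESeq2, 2001 with each library as its own replicate, and 0 to 1175 with 1 unit left out. The labels do not say whether the 2 libraries of a replicate number are runs of 1 sample. The 680 clusters with separated units and a 2-fold difference became 1439 without a filter, 409 with each library as its own replicate, 1470 at 1.5-fold, and 725 to 2115 with 1 unit left out, where 3 units separate more easily than 4. The 26 calls in isoform use became 14 with isoforms of at least 50 counts, 2 with limma, 54 with each library as its own replicate, 1 with a replicate block, 11 on the 4 units alone and 5 to 90 with 1 unit left out. Of the 26, 13 were called again with each library as its own replicate and 2 to 12 with 1 unit left out. The 955 isoforms separated by 10 points became 237 at 20 points, 578 in clusters of at least 200 counts and 1756 to 2111 with 1 unit left out. The median log2 fold change of clusters under 1000 nt was -0.19 among those of at least 10 CPM, and -0.10 over all. The cause of these changes was not tested. A unit left alone in its group was assumed to vary like the other groups. The 6 named clusters kept their direction in all 78 alternatives run. The 8 named isoforms kept theirs in all 61, of which 6 moved by more than the spread between units. All were picked because every library of 1 diet lay beyond every library of the other. Their direction in fits on fewer units or on 1 run was therefore largely fixed by the choice, and is no separate support.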
